A study of Mus musculus with 12 samples.

Results

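The prolactin and growth hormone system in the amygdala was followed through 10 genes, out of 47729 genes in the deposited table. These were the hormone genes Prl and Gh, the receptor genes Prlr and Ghr, the transcription factor genes Stat5a and Stat5b, the feedback inhibitor genes Socs2 and Cish, and the growth factor genes Igf1 and Igf1r. They were picked by gene symbol. Prl and Gh drew attention because earlier results of these same data had shown lower levels in the more anxious mice, so their levels across the groups are given as a description with no test. The other 8 genes address whether receptor and downstream genes go with the hormone transcripts. All 10 genes passed the filter on low counts, together with 26963 genes in all.

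The libraries came from 12 female C57/BL6 mice, an inbred wild-type strain, with 1 stranded mRNA library from the bilateral amygdala of each mouse. No drug or mutation was used, and the mice were bought as young adults. They went through the elevated plus maze, the light/dark box and a three-chamber social test before rapid decapitation, and the amygdala was dissected from a brain slice after the meninges had been removed. The labels place 3 mice as less anxious (mice 3, 7 and 12), 4 as anxious (mice 1, 4, 8 and 11) and 4 as more anxious (mice 2, 6, 9 and 10), and give mouse 5 no group. The study cut these groups from a principal component of the same expression values, after that component had been related to behavior. The label and the behavior of a mouse can differ. More anxious mouse 6 had the most open-arm time (29.2%) and the most distance in the light (41.9%) of the 11 mice, while the other more anxious mice had 2.33% to 4.30% open-arm time, below all other mice. A p-value between the groups is therefore not independent of the expression data. In the 11 grouped mice the total ran from 31745630 to 45142355 estimated reads, so that 3 reads, the floor used here for a gene not detected, corresponded to 0.0672 to 0.0906 CPM, the reads of a gene scaled to library size. The forebrain markers were present in every library, with Camk2a at a mean of 2354 CPM and Slc17a7 at 988.5 CPM.

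Prolactin and growth hormone are secreted by lactotroph and somatotroph cells of the anterior pituitary, where the factor Pou1f1 drives both genes. Each hormone binds its own cytokine receptor, which signals through the kinase Jak2 to the STAT5 proteins. STAT5 in turn switches on genes that include Cish and Socs2, which damp the receptor signal, and in liver and other tissues growth hormone raises Igf1. The brain responds to both hormones, for example in parental care and stress responses, and low expression of both transcripts has been described in the brain itself.

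Prl and Gh transcripts were low in most libraries and close to absent in the more anxious mice. Prl stood at 0.64, 0.93 and 1.62 CPM in less anxious mice 3, 7 and 12. In anxious mice 1, 4, 8 and 11 it stood at 2.16, 32.1, 0.60 and 4.56 CPM. In more anxious mice 2, 6, 9 and 10 it stood at 0.13, 0.090, 0.0 and 0.056 CPM. The more anxious mice lay below all other mice, while the less anxious and anxious mice overlapped. In reads, the more anxious mice held 6, 3, 0 and 2 reads of Prl, against 22 reads in the lowest of the other mice (mouse 8).

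Gh followed Prl from mouse to mouse. It stood at 0.56, 1.43 and 1.17 CPM in the less anxious mice, in the same order as above. In the anxious mice it was 1.49, 20.02, 0.38 and 1.99 CPM. In the more anxious mice it was 0.13, 0.0, 0.023 and 0.17 CPM. Here too the more anxious mice lay below the rest and the other groups overlapped. Across 11 mice the log2 CPM of Prl and Gh had r = 0.962, a description over mice that form separate clusters. Among the 7 mice with more than 10 Gh reads, there were between 0.649 and 2.29 Prl reads for each Gh read.

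**Figure D1:**
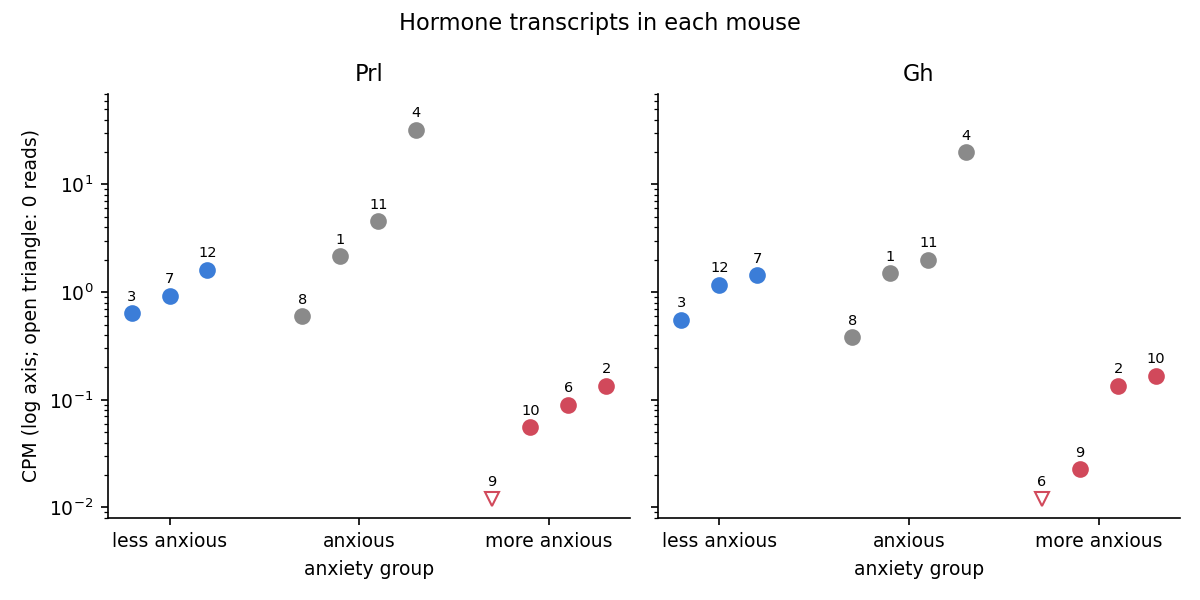
Prl and Gh in each of 11 mice by anxiety group, in CPM on a log axis, with the mouse number above each point and an open triangle at the bottom for a library with 0 reads. Mouse 4 stands at 32.1 CPM of Prl and 20.02 CPM of Gh, and the 4 more anxious mice lie at or below 0.17 CPM for both genes.

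By group means the course was not a steady fall, since the anxious mice were the highest, and for Gh this order depended on mice 4 and 11. Mean Prl was 1.06 ± 0.502 CPM (SD, n = 3) in less anxious, 9.86 ± 14.9 CPM (n = 4) in anxious and 0.070 ± 0.0568 CPM (n = 4) in more anxious mice. Mean Gh was 1.05 ± 0.450, 5.97 ± 9.39 and 0.081 ± 0.0821 CPM in the same groups. Mouse 4 held 76.2% of the Prl reads and 74.1% of the Gh reads of the 11 mice, 7.04 times and 10.1 times the level of the next highest mouse. Without it the anxious means were 2.44 ± 1.995 CPM for Prl and 1.29 ± 0.825 CPM for Gh (n = 3). Without mice 4 and 11 they were 1.38 CPM for Prl and 0.938 CPM for Gh, the latter below the less anxious mean, and mouse 8 lay below every less anxious mouse for both genes. The fall from less to more anxious mice does not involve that mouse, and the ratio of the group means was 15.2 for Prl and 13.0 for Gh. It rests on few reads, since the 4 more anxious libraries held 11 Prl and 13 Gh reads in sum and the 3 less anxious libraries 122 of each. In bulk tissue, fewer cells of a type and less RNA per cell cannot be told apart.

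Both genes are transcribed from single loci in the GRCm38 build. Prl lies on chromosome 13 at 27057570 to 27065205 (plus strand) and Gh on chromosome 11 at 106300271 to 106301865 (minus strand). Neither transcript shared a stretch of 75 bases, the read length, with another annotated gene, so that no whole read is shared by sequence with a relative in the prolactin family. Of 25 such relatives in the table, 5 had a read. Nearly all of their reads belonged to Prl8a1, which ran from 1.93 to 7.17 CPM over the mice and stood at 4.18 CPM in mouse 4, well inside that range. The gene Gm47888 overlaps Prl on the other strand, and no annotated gene overlaps Gh.

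The promoter of Prl is shown because the letters TATNCAT, a core of the sites bound by Pou1f1, occur in it on both strands (in capitals). They begin 148 and 47 bases before the start of the gene. The sequence is the plus strand before that start, from RefSeq on build GRCm38.p6, chr13:27057320-27057569.
Prl promoter: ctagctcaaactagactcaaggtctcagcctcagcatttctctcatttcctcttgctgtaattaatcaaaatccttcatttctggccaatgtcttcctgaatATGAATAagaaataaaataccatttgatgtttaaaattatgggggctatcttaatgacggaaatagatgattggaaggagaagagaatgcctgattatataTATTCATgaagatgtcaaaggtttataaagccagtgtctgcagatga
The same letters, searched on both strands, occur in 8.84% of 32851 promoter windows of 300 bases. RefSeq promoter windows were found for 8 of the 10 genes (13 windows in all, with none for Gh and Socs2), and only the Prl window held these letters. Pou1f1 itself was near the detection floor, between 2 reads in mouse 9 and 15 reads in mouse 2.

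Because both hormones are products of the pituitary, other pituitary transcripts were read in the same libraries. Mice 4 and 11, the mice with the highest Prl, also held transcripts of the pituitary gonadotrope cells. Cga, the shared alpha subunit of the glycoprotein hormones, had 36 reads in mouse 4 and 92 reads in mouse 11, against at most 4 reads in any other mouse. Fshb, the beta subunit of follicle-stimulating hormone, had 9 and 10 reads in these mice and 0 reads in the others. Lhb, the beta subunit of luteinizing hormone, had 7 and 20 reads there, against at most 3 reads elsewhere. The corticotrope gene Pomc stood at 3.57 CPM in mouse 4 and 7.16 CPM in mouse 11, and between 0.83 and 1.61 CPM in the other 9 mice.

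The order of these mice was not the same for all pituitary genes. Prl and Gh were higher in mouse 4 than in mouse 11, while Cga, Lhb, Fshb and Pomc were higher in mouse 11. Tshb, the beta subunit of thyrotropin, did not stand out in either, with 31 reads in mouse 4, 41 reads in mouse 11 and 29 to 66 reads in the other mice. Of the 13 pituitary markers 9 passed the count filter and 0 were called in either group comparison by edgeR or DESeq2. That count says little, since edgeR called at most 0.0445% and DESeq2 at most 0.881% of all genes. At an unadjusted p under 0.05 for any change by edgeR, 4 of the 9 passed (Pomc, Fshb, Lhb and Cga), against 6.35% of all genes. Fshb and Cga met the count filter only through mice 4 and 11, so their p-values carry no support. The summed level of the 13 ran from 24.1 to 36.6 CPM in less anxious, 33.4 to 55.7 CPM in anxious and 18.1 to 41.0 CPM in more anxious mice. Most of that sum was Trhr, the thyrotropin-releasing hormone receptor, which neurons also express. In the more anxious mice Cga and Fshb were at 0 reads. In less anxious mice 3, 7 and 12 Cga had 2, 0 and 2 reads and Fshb had 0 reads, beside 23 to 62 reads of Prl. Mouse 4 held 36 reads of Cga and 9 of Fshb beside 1222 of Prl. Mouse 11 held 92 and 10 beside 151 of Prl. The proportion of these transcripts thus differed widely between mice, and so few reads do not show an absence. The part of tissue from outside the amygdala in these levels was not tested.

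**Figure D2:**
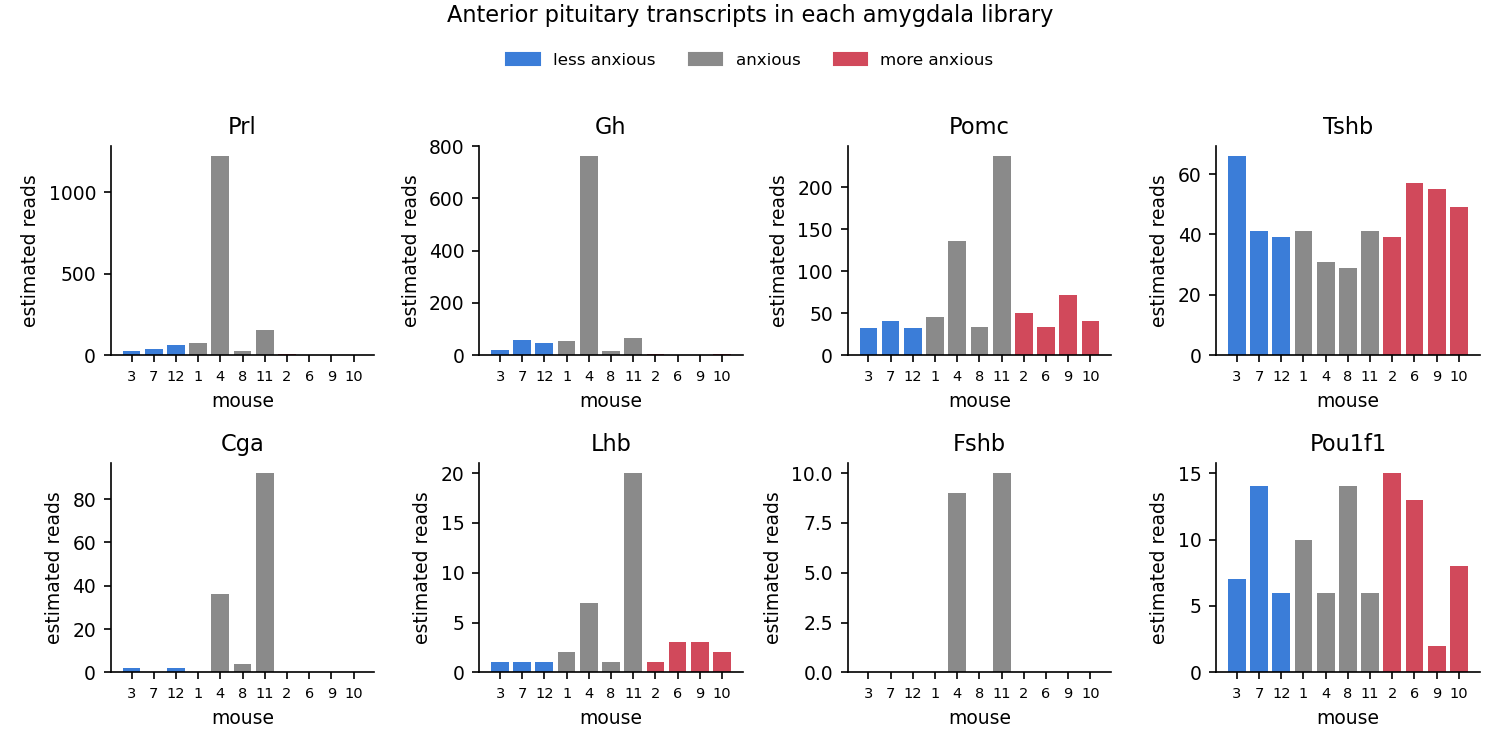
Estimated reads of 8 pituitary transcripts in each of 11 mice, 1 bar per mouse, colored by anxiety group, each panel with its own axis from 0. Prl and Gh peak in mouse 4, Cga, Lhb and Pomc peak in mouse 11, Fshb is present only in those mice, and Tshb and Pou1f1 show no such peak.

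The genes most like Prl in log2 CPM over 11 mice, out of 15889 genes with a mean of at least 1 CPM, were Ptpdc1 (r = 0.927), Vps13a (r = 0.925), Hsph1 (r = 0.912), Gm42833 (r = 0.886) and Jade3 (r = 0.859). For Gh they were Ptpdc1, Vps13a, Hsph1, Bcl11b (r = 0.899) and Gm37824 (r = 0.877). The list was picked by r from these same data, over mice that form separate clusters of hormone level, and is a description. These genes differed far less between mice than Prl and Gh did. Their highest mouse exceeded their lowest by 1.35 to 2.07 times. Ptpdc1, for example, ran from 32.0 to 46.7 CPM. None of the other 8 genes of the system is among them.

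The receptor and downstream genes were detected in every mouse. Levels were scaled by the joint length of all annotated exons of a gene, such as 5539 bases for Stat5b and 15339 bases for Prlr. The order below depends on that length, which can exceed the length of a single transcript. Stat5b was the highest with a mean of 5.37 reads per kilobase of exon, scaled to library size (RPKM). Then came Igf1r at 2.77, Socs2 at 2.19 and Ghr at 1.82 RPKM. Igf1 (0.643), Cish (0.628), Prlr (0.547) and Stat5a (0.159 RPKM) were lower. The means of Gh (2.89) and Prl (2.77 RPKM) come mostly from mouse 4 and are not comparable.

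None of these 8 genes passed the tests between the groups. By edgeR's quasi-likelihood test 0 of 8 were called for any change across the groups, where 0.00742% of all genes tested were called, and 0 of 8 for more against less anxious, where 0.0445% were called. Their adjusted p-values ran from 0.533 to 0.982 for more against less anxious. At an unadjusted p under 0.05, 1 of the 8 passed (Stat5a), against 8.84% of all genes. DESeq2 called 0 of 8 as well, where it called 0.542% of the genes it tested for any change and 0.881% for more against less anxious. The median log2 fold change of the 8 genes from less to more anxious was -0.17, with 5 genes below 0 and 3 above, beside a median of 0.0036 over all genes. The hormone transcripts in the same contrast had fitted log2 fold changes of -4.09 (SE 1.85) for Prl and -3.76 (SE 1.71) for Gh, given as a description.

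**Figure D3:**
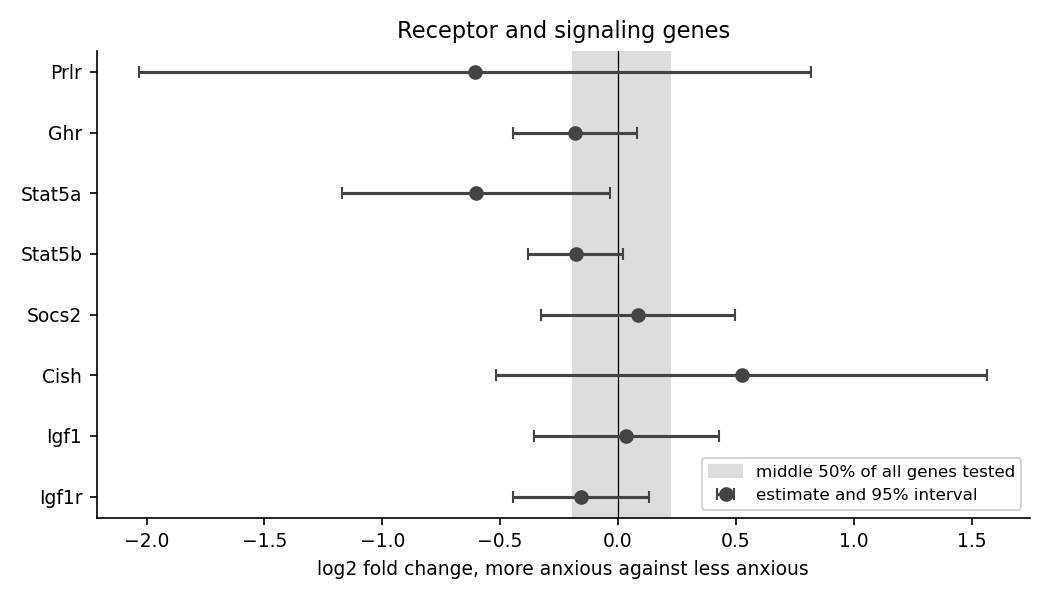
Log2 fold change of more against less anxious mice for the 8 receptor and signaling genes, with points for the estimate, bars for its 95% interval and a gray band for the middle 50% of all genes tested. Stat5a is the only gene whose interval leaves out 0 before adjustment (-1.17 to -0.035), and Prlr and Cish have the widest intervals.

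Prlr, the prolactin receptor gene, varied most among the more anxious mice. It stood at 10.1, 8.76 and 10.1 CPM in less anxious mice 3, 7 and 12. In anxious mice 1, 4, 8 and 11 it stood at 14.7, 6.81, 6.92 and 7.49 CPM. In more anxious mice 2, 6, 9 and 10 it stood at 11.7, 10.3, 3.20 and 2.20 CPM. The less anxious mice were close together, and the more anxious mice split into a pair above and a pair below them. Mouse 4, with the most Prl, had the lowest Prlr of the anxious mice. The log2 fold change was -0.61 (SE 0.62, adjusted p = 0.849 by edgeR), and its 95% interval of -2.03 to 0.82 leaves room for a large change in either direction. Of the 75-base stretches of Prlr, 0.83% also occur in the overlapping gene Gm21973.

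Ghr, the growth hormone receptor gene, was steadier. It stood at 20.3, 16.5 and 18.6 CPM in the less anxious mice, at 18.4, 15.8, 13.1 and 15.5 CPM in the anxious mice and at 16.9, 15.9, 15.1 and 15.4 CPM in the more anxious mice. The groups overlapped through mouse 7 and mouse 2. From less to more anxious the log2 fold change was -0.18 (SE 0.12, adjusted p = 0.733), with an interval of -0.44 to 0.079. The fitted log2 fold change of Gh, -3.76 (SE 1.71), lies outside that interval. The interval of Gh itself, -7.73 to 0.21, is wide and covers that of Ghr. Whether Ghr fell less than Gh was not tested.

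Stat5a and Stat5b encode closely related transcription factors, and both were lower in every more anxious mouse than in every less anxious mouse. Stat5a stood at 1.72, 1.15 and 1.80 CPM in less anxious and at 1.03, 0.99, 0.82 and 1.06 CPM in more anxious mice. The anxious mice were at 1.09, 0.63, 0.98 and 1.24 CPM, so that mouse 11 was above the lowest less anxious mouse. The gap between mouse 7 at 1.15 CPM and mouse 10 at 1.06 CPM is narrow at this depth, with 24 to 69 reads of Stat5a per library. The log2 fold change was -0.60 (SE 0.26, unadjusted p = 0.0391, adjusted p = 0.533 by edgeR).

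Stat5b, which is far more abundant here, stood at 31.5, 33.4 and 31.6 CPM in less anxious and at 27.4, 31.0, 29.4 and 26.6 CPM in more anxious mice. The anxious mice lay at 30.7, 28.9, 28.6 and 28.3 CPM, also below all less anxious mice. The log2 fold change was -0.18 (SE 0.094, adjusted p = 0.630), with an interval of -0.38 to 0.023. Such an ordering, with every more anxious mouse below every less anxious mouse, held for 2 of the 8 genes and for 3.91% of all genes tested. The genes share part of their sequence, with 387 stretches of 75 bases found in both (5.12% of Stat5a and 6.99% of Stat5b), where a read could be divided between them. Stat5a also overlaps Stat3 on the other strand.

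**Figure D4:**
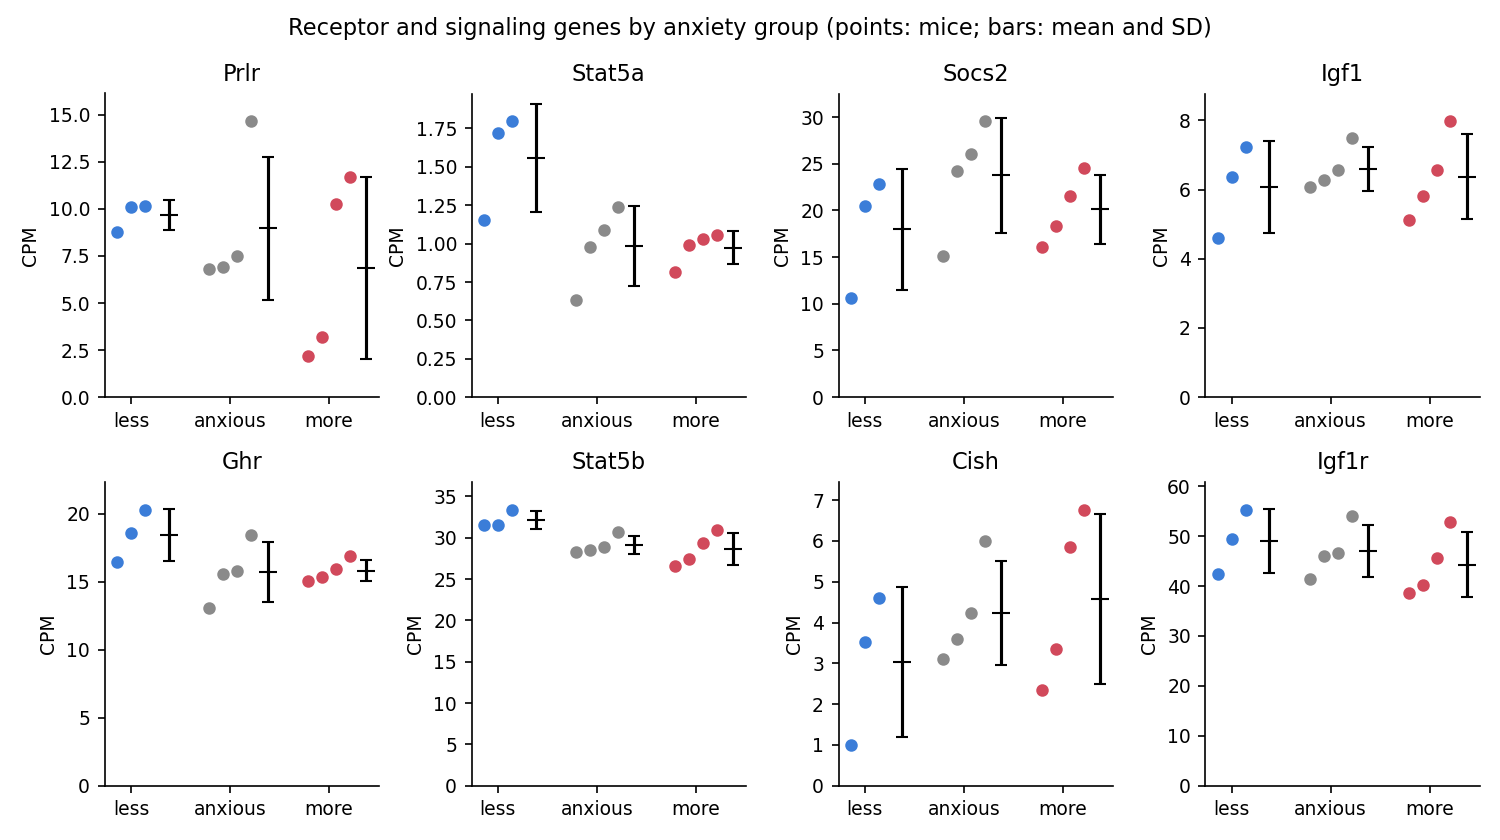
CPM of the 8 receptor and signaling genes in each mouse by anxiety group, with a black bar for the group mean and SD, on axes from 0. Stat5a and Stat5b of the more anxious mice lie below the less anxious mice, and the groups overlap for the other 6 genes.

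Socs2 and Cish, the feedback inhibitors that STAT5 induces, showed no call and fold changes above 0. Cish stood at 1.0, 4.59 and 3.52 CPM in less anxious mice 3, 7 and 12. In the anxious mice it was 4.22, 3.10, 3.60 and 6.01 CPM, and in the more anxious mice 6.77, 5.84, 3.35 and 2.34 CPM. The highest value was in more anxious mouse 2, with 6 reads of Prl, and the lowest in less anxious mouse 3, with 23 reads. Its log2 fold change was 0.53 (SE 0.47, adjusted p = 0.816), with an interval of -0.52 to 1.57.

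The Cish promoter is shown because it holds the STAT5 letters TTCNNNGAA in 2 places side by side (in capitals, the same on both strands). The matches begin at the first base from the RefSeq start of the transcript and 11 bases after it. The sequence is the plus strand from RefSeq on build GRCm38.p6, chr9:107296559-107296688.
Cish promoter: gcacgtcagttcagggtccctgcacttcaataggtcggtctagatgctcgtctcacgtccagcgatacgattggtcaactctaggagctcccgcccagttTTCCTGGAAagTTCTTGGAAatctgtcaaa
These letters occur in 8.30% of the 32851 promoter windows. Besides Cish, 1 of 3 Prlr windows held them. The window of Igf1 held none, which says only that the letters are not in these 300 bases.

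Socs2 overlapped between the groups. It stood at 10.6, 22.8 and 20.5 CPM in less anxious, 15.1, 26.1, 29.6 and 24.3 CPM in anxious and 24.5, 21.6, 16.1 and 18.3 CPM in more anxious mice. The lowest value was again in mouse 3. Its log2 fold change was 0.085 (SE 0.19, adjusted p = 0.947), with an interval of -0.33 to 0.50.

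Igf1, which growth hormone raises in liver, overlapped between the groups. It stood at 4.61, 7.23 and 6.36 CPM in less anxious, 6.06, 6.57, 6.27 and 7.49 CPM in anxious and 7.98, 6.56, 5.82 and 5.12 CPM in more anxious mice. The log2 fold change was 0.036 (SE 0.18, adjusted p = 0.982), with an interval of -0.36 to 0.43. Igf1r, the gene of its receptor and the most counted of the 10 genes, ran from 42.5 to 55.3 CPM in less anxious, 41.3 to 54.1 CPM in anxious and 38.6 to 52.9 CPM in more anxious mice. Its log2 fold change was -0.16 (SE 0.13, adjusted p = 0.803). A long noncoding gene, Igf1os, overlaps Igf1 on the other strand, and 7.93% of the 75-base stretches of Cish also occur in the genes Gm17040 and Gm17041 on its other strand.

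Cish and Igf1 went together from mouse to mouse, and the relation did not follow the groups. This was examined after the values had been seen, as 1 of 28 pairs among the 8 genes. Over 11 mice the log2 CPM of Cish and Igf1 had r = 0.908 (permutation p = 0.00024, adjusted p = 0.00672 over the 28 pairs) and rho = 0.809 (permutation p = 0.0039, adjusted p = 0.109). Without mice 2 and 3, the farthest from the median of Cish, r was 0.795. Mice 3 and 10 were lowest and mice 2 and 11 highest for both genes, so that each end held mice of different groups. Of 15890 genes with a mean of at least 1 CPM, 4 reached at least this r with Cish, Igf1 among them.

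No other pair passed adjustment. Socs2 had r = 0.688 with Cish and r = 0.758 with Igf1 (permutation p = 0.0438 and 0.011, adjusted p = 0.245 and 0.154), and without mice 1 and 3, the farthest for Socs2, these were 0.341 and 0.552. The rank correlations with Cish and Igf1 were 0.445 and 0.718. An r with Cish as high as that of Socs2 was reached by 2.38% of the genes.

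Whether the 8 genes go with the hormone level itself was examined in the 7 less anxious and anxious mice, since the 4 more anxious mice formed a separate cluster too small for a correlation. Of 16 relations none passed adjustment, with exact permutation tests over 5040 orders of the mice (adjusted p from 0.741 to 0.862 for r and 0.840 for rho). The lowest r was that of Stat5a, -0.67 with Prl and -0.68 with Gh (exact permutation p = 0.1397 and 0.1484). Without mouse 4, left out after the values had been seen, r of Stat5a was -0.025 with Prl and 0.0034 with Gh over 6 mice. Values also moved with the pair left out. Without mice 4 and 11, the farthest from the median of Prl, r of Stat5a with Prl was 0.073 and r of Prlr with Prl turned from -0.32 to 0.80. Without mice 4 and 8, the farthest for Gh, r of Stat5a with Gh stayed at -0.70 and r of Prlr with Gh went from -0.28 to -0.21. Without the same mice r of Cish with Gh moved from 0.23 to 0.99 over the 5 mice left. Over these mice r with Gh also moved from 0.38 to 0.93 for Igf1 and from 0.31 to 0.84 for Socs2. For the receptor gene Ghr it moved the other way, from -0.05 to -0.87.

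Genes that act around the hormones gave no call either. Over all genes edgeR called 0.0445% for more against less anxious and 0.00742% for any change. DESeq2 called 0.881% and 0.542%. At such shares 0 calls in this list and the lists below say little about their genes. Of 16 regulators of hormone release 15 were tested and 0 were called by edgeR or DESeq2. Sstr5, a somatostatin receptor gene, was lower in every more anxious mouse than in every less anxious mouse, with means of 2.92 ± 0.222 CPM (SD, n = 3) and 1.52 ± 0.902 CPM (n = 4) and a log2 fold change of -1.13 (SE 0.37, unadjusted p = 0.00978, adjusted p = 0.382). Prlhr, the receptor of prolactin-releasing peptide, Vipr2, a receptor of vasoactive intestinal peptide, and Sstr5 had an unadjusted p under 0.05 for any change by edgeR. Of all genes 6.35% did so, and 8.84% for more against less anxious. Sst, which encodes somatostatin, an inhibitor of growth hormone release, was the highest of the list at 242.2 CPM in less anxious, 365.6 CPM in anxious and 339.9 CPM in more anxious mice (adjusted p = 0.671). The median log2 fold change of the 15 genes was -0.15.

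Of 21 JAK-STAT signaling and feedback genes, 21 were tested and 0 called, with a median log2 fold change of -0.042. The phosphatase gene Ptpn6 had an unadjusted p of 0.0186 for any change by edgeR (adjusted p = 0.674), with the lowest mean, 2.71 ± 1.49 CPM, in the anxious mice. The adaptor gene Grb2 was the highest of the list with a mean of 134.2 CPM. Jak2, the kinase bound to both hormone receptors, stood at 42.9 ± 1.005, 39.8 ± 3.97 and 37.2 ± 2.47 CPM in less anxious, anxious and more anxious mice. Of 21 genes of the IGF axis 0 were called, with a median of -0.076. In that list Pik3ca, a catalytic subunit of PI3 kinase, was lower in every more anxious mouse than in every less anxious mouse (log2 fold change -0.29, SE 0.088, unadjusted p = 0.00497, adjusted p = 0.321). The binding protein gene Igfbp5 was the highest at 126.2 CPM.

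Markers of other tissues and cell types were read in the same way. Ttr, the defining transcript of the choroid plexus, stayed between 1.02 and 5.57 CPM in the less anxious mice. It ran from 2.125 to 4.77 CPM in anxious and from 1.28 to 4.43 CPM in more anxious mice. The 14 choroid plexus markers summed to 96.8 to 126.9 CPM in less anxious, 95.9 to 108.5 CPM in anxious and 89.2 to 105.7 CPM in more anxious mice. Most of that sum was Tmem72, with a mean of 82.5 CPM. Of the 14 genes, 9 had a fold change below 0 and 5 above, and Kcnj13, Clic6 and F5 were lower in more anxious mice at an unadjusted p under 0.05, and DESeq2 called Kcnj13. The 6 endothelial markers, of which Pecam1, Flt1 and Kdr passed an unadjusted p under 0.05, all had fold changes below 0 and summed to 108.0 to 154.3 CPM in less anxious, 82.0 to 130.4 CPM in anxious and 76.0 to 97.3 CPM in more anxious mice. The 6 microglia markers also all lay below 0, with Cx3cr1 at an unadjusted p of 0.0362 by edgeR. Over all genes tested, 49.5% had a fold change below 0 from less to more anxious. By edgeR 8.84% of them had an unadjusted p under 0.05 in that contrast, and 6.35% for any change. The 9 hypothalamus markers found in the table (Kiss1 was not found) summed to 4.07 to 25.6 CPM in less anxious, 4.17 to 10.8 CPM in anxious and 7.35 to 35.3 CPM in more anxious mice, and the meningeal markers to 88.2 to 112.1, 37.1 to 115.0 and 43.3 to 165.6 CPM. The 12 forebrain markers included Slc17a7, higher in more anxious mice at an unadjusted p of 0.0249, and Tac2, lower at 0.0385, and Gnrh1 of the hypothalamus list passed for any change. None of the marker genes was called by edgeR. Their part in the levels of Stat5a, Stat5b and the hormones was not tested.

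Against behavior, which was measured apart from expression, none of the 10 genes was called by edgeR or DESeq2. By edgeR the share of all genes called was 0.0% for open-arm time, 0.0% for total maze entries and 0.0% for distance in the light. The 0.0223% called for the box:zone ratio at 10 min, which compares the time in the box beside a stranger mouse with the time in the zone around it, did not include any of the 10 genes. DESeq2 called 0.125%, 0.11%, 0.0637% and 0.322% of the genes it tested for these measures in the same order. For the first 3 measures none of the genes had an unadjusted p under 0.05. Prl had a fitted change of 1.45 log2 units per SD of open-arm time (SE 1.63, adjusted p = 0.954 by edgeR), and of -0.84 for entries (SE 1.46), -0.96 for distance in the light (SE 1.51) and -1.35 for the social ratio (SE 0.87). Gh had the same signs.

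Among the behavior measures tested, the social ratio gave the lowest p-values. Cish had a change of -0.57 log2 units per SD of the ratio (SE 0.16, unadjusted p = 0.00392, adjusted p = 0.421 by edgeR), and Igf1 had a change of -0.17 (SE 0.065, unadjusted p = 0.0179, adjusted p = 0.533). Socs2 had -0.23 (SE 0.11, unadjusted p = 0.0515). Mouse 3, with the highest ratio at 2.62, was the lowest for all 3 genes. Without mouse 3, left out after the values had been seen, the changes were -0.18 (SE 0.13) for Cish, -0.09 (SE 0.066) for Igf1 and -0.0061 (SE 0.087) for Socs2, with unadjusted p from 0.193 to 0.945 by edgeR. Among all genes 8.05% had an unadjusted p under 0.05 for this ratio.

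**Figure D5:**
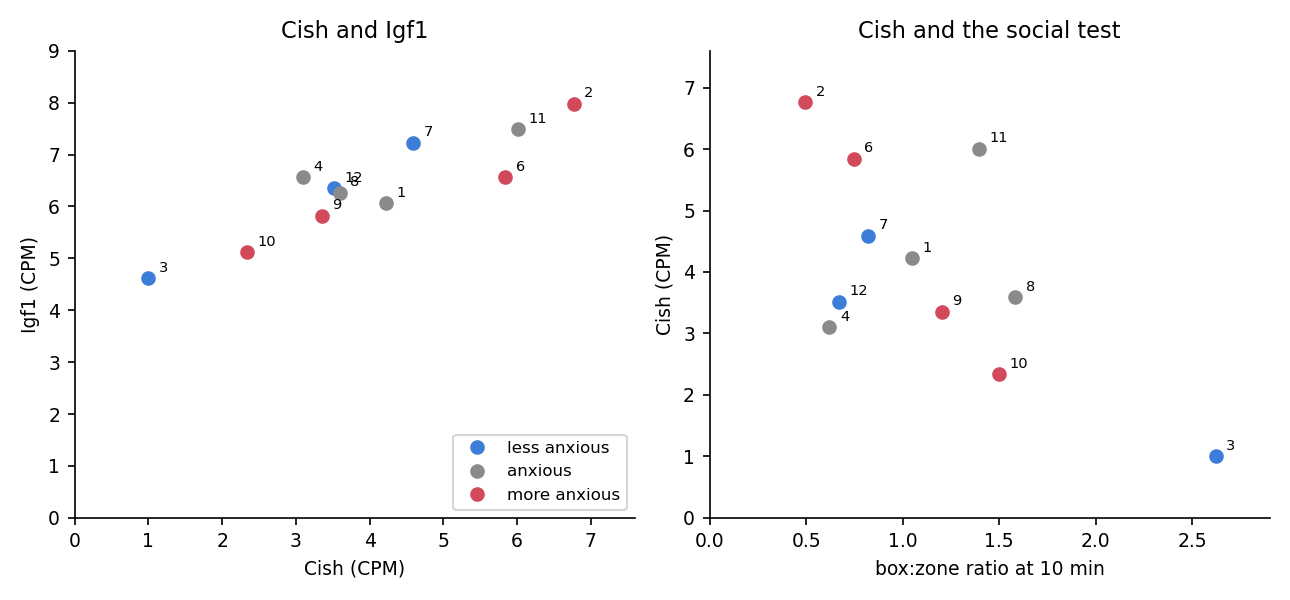
Igf1 against Cish in CPM (left) and Cish in CPM against the box:zone ratio at 10 min (right) for 11 mice, colored by group and numbered. Igf1 rises with Cish from mouse 3 to mouse 2, and mouse 3 stands apart on the right with a ratio of 2.62 and 1.0 CPM of Cish.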

How the data were processed

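Amygdala mRNA of 12 mice was sequenced in 1 run of single-end 75 bp reads. The authors quantified transcripts with Salmon, used a STAR alignment (mm10) to judge quality, and deposited the tximport gene sums as estimated counts (expected counts), whole numbers that are not normalized. Annotation release, tool versions and strand setting are not given in the sources used here. Gene names came from GENCODE M21. Groups and behavior came from the labels.

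Genes with at least 10 reads over 11 mice were tested with edgeR's quasi-likelihood F-test (robust, TMM factors, PC1 score as covariate) and Benjamini-Hochberg adjustment, with 0.05 as threshold. DESeq2 was an alternative. Behavior measures were tested as standardized numbers without covariate. Log2 CPM used a prior count of 2. Correlations used two-sided permutations, exact or 100000. Versions were R 4.3.3, edgeR 4.0.16, DESeq2 1.42.0 and scipy 1.17.1. Procedures were tested on simulated data. Read floors cover counting error only. Each mouse is 1 sample.

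The genes and lists were chosen with earlier results of these data known. Named were the 10 genes, from each list those with an unadjusted p under 0.05 in a group comparison and the highest, and the 5 genes most like each hormone. Jak2, Tshb, Ttr, Pou1f1 and Prl8a1 were named after their values were seen. 1 gene of the pituitary list is not reported here. Every column of counts was used. Of the behavior measures in the labels, time in the light and the box:zone ratios at the earlier times were not tested.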

Additional observations from a re-analysis of the deposited data

Results flagged for a closer look

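In groups of 4 mice, 7 of 74 sets of values had a mouse far from the other 3 by Dixon's criterion, where chance marks about 1 in 20. Among the 10 genes of the hormone system, anxious mouse 4 stood at 32.1 CPM of Prl against 0.60 to 4.56 CPM in the other anxious mice. The same mouse had 20.02 CPM of Gh against 0.38 to 1.99 CPM. Anxious mouse 1 had 14.7 CPM of Prlr against 6.81 to 7.49 CPM in the others.

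The other 4 lay in the surrounding lists. More anxious mouse 9 had 92.3 CPM of Igfbp5, below 129.9 to 134.4 CPM in its group. More anxious mouse 2 had 132.2 CPM of the fibroblast gene Dcn against 13.1 to 23.8 CPM. More anxious mouse 10 had 1.20 CPM of Kcnj13 against 0.134 to 0.300 CPM, and anxious mouse 8 had 75.8 CPM of Pecam1 against 9.54 to 20.4 CPM.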

How the results depend on the processing

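The count of receptor and signaling genes called stayed at 0 of 8 in all 17 alternatives, which covered size factors, filter, test, covariate, robust option, each mouse left out and mice 4 and 11 left out together (chosen after seeing the data), with adjusted p from 0.413 to 1.0 for more against less anxious. The highest share of all genes called was 0.881% (DESeq2, more against less anxious). A count of 0 of 8 was therefore likely from the outset and does not show stability. Fold changes turned direction only for genes close to 0, Socs2 at -0.0736 without less anxious mouse 3 and Igf1 at -0.0736 without more anxious mouse 2 and -0.0779 without mouse 3, and the cause was not tested. Leaving out each mouse in turn moved Socs2 between -0.0736 and 0.255, Igf1 between -0.0779 and 0.133 and Prlr between -1.03 (without mouse 2) and -0.212 (without mouse 10), Cish between 0.186 (without mouse 3) and 0.806 (without mouse 7), Igf1r between -0.245 (without mouse 12) and -0.0272 (without mouse 7), Ghr between -0.229 (without mouse 7) and -0.119 (without mouse 9), and the median of the 8 genes between -0.185 (without mouse 12) and -0.0963 (without mouse 7; -0.102 without mouse 9).

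Counts over all genes differed between settings, and the cause was not tested. For any change, 2 genes by the reported fit became 9 without the count filter, 187 with DESeq2, 0 without the PC1 score, 1 without the robust option, 1 without mice 4 and 11, and 0 to 4 with 1 mouse left out. For more against less anxious, 12 became 25, 304, 3, 2 and 1 in the same order, and 0 to 24 with 1 mouse left out (0 without mouse 3, 24 without mouse 6). For open-arm time 0 became 1 without the filter, 43 with DESeq2 and 1 with mouse 5 included. DESeq2 gave 38 for total maze entries and 22 for distance in the light. For the box:zone ratio 6 became 10 without the filter, 111 with DESeq2 and 1 without mouse 3.

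No paired analysis was possible because each mouse number belongs to a single group. Depth limits Prl and Gh in the more anxious mice, where each library held 0 to 6 reads.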

Other observations

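Mouse 5, which the labels place in no group, is given by its values only. The paper left this mouse out as an outlier in a principal component analysis. Its library held reads of 23768 genes, against 26378 to 28196 genes in the grouped mice. It had 0 reads of Prl, where 3 reads would be 0.0911 CPM, and 8 reads of Gh (0.243 CPM). Ghr at 22.1 CPM and Igf1 at 8.23 CPM were above the highest of the other 11 mice (20.3 and 7.99 CPM), and Stat5b at 25.1 CPM was below their lowest (26.6 CPM). Prlr at 13.5 CPM, Socs2 at 26.7 CPM, Igf1r at 45.2 CPM and Stat5a at 0.668 CPM lay within the range of the others. Cish, at 1.88 CPM, was low in this mouse although Igf1 was high, unlike in the 11 grouped mice.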
